A study of Caenorhabditis elegans with 12 samples.

Results

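Wild-type Caenorhabditis elegans hermaphrodites that had lived to 15 days in the solvent dimethyl sulfoxide (DMSO) were set against worms of 5 days in the same solvent. The comparison used 6 of the 12 libraries of the series, 3 at each age, chosen by their labels alone, and 17166 of the 46748 genes in the count table had enough counts to be tested. The 15-day group and the 5-day group were both whole worms of strain N2 given 0.1% DMSO, with no deletion, transgene or other agent named for either. Worms given 100 nM rotenone for 24 h from the fourth larval stage, sampled at 15 days and at 5 days, entered the same fit and are set beside the DMSO worms at the end. The event that age is counted from and the way progeny were kept apart are not given in the labels, nor is it stated whether the 3 libraries of a group came from separate cultures, so p-values measure the spread between these libraries, which may be technical.

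A worm of 5 days is usually a young adult that is still laying eggs, and one of 15 days has stopped reproducing and shows the muscle, gut and cuticle decline known from worm ageing. The adult intestine makes yolk, digests bacteria and carries most of the detoxification enzymes, while the gonad holds the only cells that still divide. Because RNA was taken from whole animals, fewer cells of a tissue and less RNA per cell cannot be told apart in any result here.

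Library totals were 34307432 to 48687629 counts at 15 days and 43507026 to 53716605 counts at 5 days. At 15 days 12656 to 12796 genes reached 1 CPM (counts scaled to library size, adjusted between libraries by the trimmed mean of M-values), against 13252 to 13276 genes at 5 days, so the groups did not overlap. The first principal component of the 12 libraries held 82% of the variance and separated the ages. Replicates lay close together, with a biological coefficient of variation of 2.98% at 15 days and 3.79% at 5 days, and no pair of libraries was alike within counting noise.

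Most of the transcriptome differed between the ages. Of the tested genes, 6050 were called higher at 15 days (35.2%) and 7029 were called lower (40.9%), by edgeR's quasi-likelihood test at a Benjamini-Hochberg adjusted p of 0.05. The falls were the larger changes: 1094 genes (6.37%) were called and at least 2-fold higher, while 2867 genes (16.7%) were called and at least 2-fold lower. At 8-fold the counts were 114 higher and 200 lower. The 3 and 3 libraries did not overlap, in one direction or the other, for 77% of tested genes. The median log2 difference over all tested genes was −0.06, which is the value against which each group of genes is read below. Genes called higher took 64.4% ± 0.154 of all counts at 15 days and 48.3% ± 0.452 at 5 days (SD, n = 3 each), while genes called lower took 20.5% ± 0.17 at 15 days and 37.1% ± 0.264 at 5 days. The direction of these shares follows from the calls, which rest on the same libraries, so only their size is informative.

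**Figure D1:**
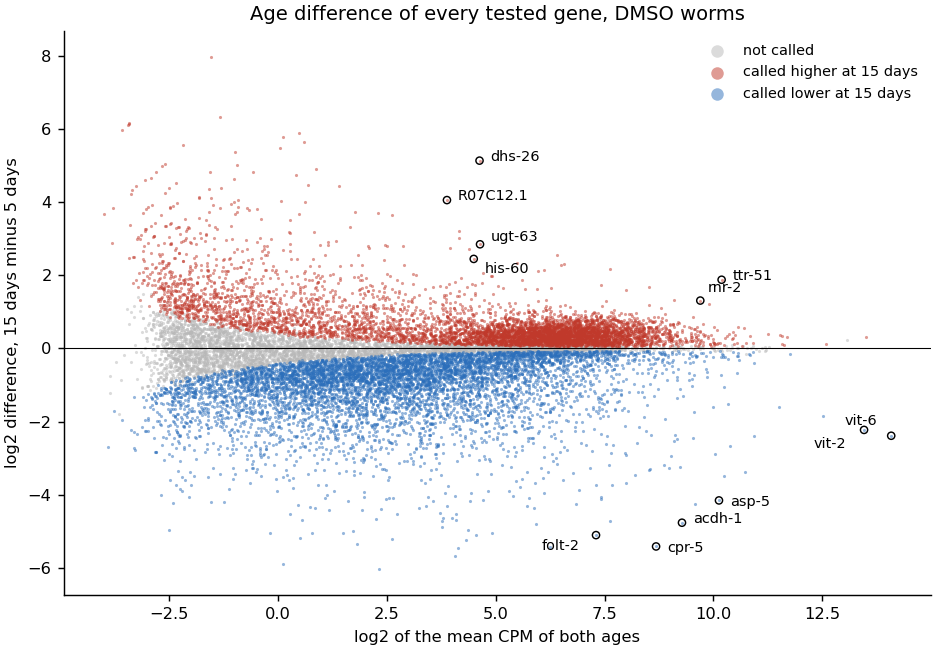
Each point is 1 of the 17166 tested genes of DMSO worms, with the log2 of its mean CPM over both ages on the horizontal axis and the log2 difference, 15 days minus 5 days, on the vertical axis; red and blue points were called higher or lower and grey points were not called. The called rises of abundant genes form a dense band close to 0, while the falls reach further, to cpr-5, acdh-1 and asp-5, and the yolk genes vit-6 and vit-2 sit at the far right with differences of −2.39 and −2.23.

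The balance of calls differed between levels of abundance. Among genes in the highest of 5 equal bins of mean level (above 73.3 CPM) 67.3% were called higher and 21% lower, with a median log2 difference of 0.22. In the middle bin (3.67 to 18.3 CPM) 21.3% were called higher and 62.9% lower, with a median of −0.41. The lowest bin (0.0624 to 0.751 CPM) was nearly even, with 23.8% higher, 26.4% lower and a median of −0.06. The gene lists below were not matched for level, and the part of abundance in their counts was not tested. The most abundant transcript at 15 days was eef-1A.1, an elongation factor of translation, with 1.28% ± 0.019 of counts at 15 days and 1.01% ± 0.0673 at 5 days. At 5 days it was the yolk protein gene vit-6, with 0.552% ± 0.0321 of counts at 15 days and 2.83% ± 0.0853 at 5 days. The ribosomal RNA gene rrn-3.1 was also among the top 5 at both ages. It varied from 4525 to 10882 CPM between the 5-day libraries and did not pass the test (edgeR adjusted p = 0.458). Without the filter on low counts its edgeR adjusted p was 2.29e-12, for a log2 difference of 0.18. That p does not reflect the spread between the 5-day libraries, so calls without the filter are treated as doubtful below. The other abundant genes were eef-2, also an elongation factor, with 0.633% ± 0.0173 and 0.574% ± 0.0111 of counts at 15 and 5 days, and the yolk genes vit-2 and vit-5.

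Among called genes with at least 10 CPM and no overlap between the libraries of the ages, dhs-26 rose most. It is a short-chain dehydrogenase gene on the X chromosome (3360722 to 3362493, minus strand, genome build WBcel235). It had 48.6, 49.1 and 46.5 CPM in the 15-day libraries, against 1.47, 1.46 and 1.15 CPM in the 5-day libraries. The groups were far apart, and the log2 difference was 5.14 ± 0.087 (SE; edgeR adjusted p = 4.8e-20), a 35.2-fold rise. The uncharacterised gene R07C12.1 had 25.6, 31.2 and 26.5 CPM at 15 days, against 1.54, 1.73 and 1.69 CPM at 5 days, 16.7-fold higher. C27H5.6 rose by 3.66 on the log2 scale, F19C7.2 rose 9.31-fold and ZC239.22 rose 8.19-fold. The UDP-glucuronosyltransferase gene ugt-63, of a family that conjugates foreign compounds, had 45.6, 46.1 and 39.6 CPM at 15 days, against 6.99, 6.53 and 4.65 CPM at 5 days. It rose while most of its family fell, as given below. The F-box gene fbxa-24 rose 6.64-fold and the histone gene his-60 rose 5.45-fold. F11E6.11, Y68A4A.13, C18D11.6 and Y47H10A.5 complete the 12 largest rises, at 7.02-fold, 6.99-fold, 6.72-fold and 5.89-fold. Of these, Y47H10A.5 was the most abundant, with 145 ± 8.97 CPM at 15 days and 24.6 ± 1 CPM at 5 days (SD, n = 3 each).

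The largest falls went deeper. H25K10.1, on chromosome IV (16202374 to 16205464, plus strand), had 0.68, 0.501 and 0.705 CPM at 15 days, against 33.7, 32.1 and 32.9 CPM at 5 days, a 51.2-fold fall. The aspartic protease gene asp-8 fell 44.3-fold, and the C-type lectin gene clec-52 fell 43.1-fold. The cysteine protease gene cpr-5, a cathepsin B homologue on chromosome V (1132598 to 1134036, minus strand), had 18.7 ± 2.18 CPM at 15 days, against 753, 825 and 831 CPM at 5 days (SD, n = 3). Its log2 difference was −5.42 ± 0.067 (SE; edgeR adjusted p = 8.84e-22), a 42.8-fold fall. The folate transporter family gene folt-2 fell 34.5-fold, with 8.88 ± 0.422 CPM at 15 days and 307 ± 5.47 CPM at 5 days. The lysozyme gene lys-4 had 4.76, 4.21 and 3.73 CPM at 15 days, against 118, 118 and 119 CPM at 5 days. The cuticle collagen genes col-165 and col-139 fell 34.7-fold and 29.6-fold, phat-5 of the pharyngeal glands fell 37-fold, and clec-47 fell 31.6-fold. F49E12.10 and T16G1.5, with no role given here, fell 38.2-fold and 33-fold. Below 10 CPM, and so outside the rule for the largest changes, vmo-1 fell further, with 0.126, 0.0589 and 0.228 CPM at 15 days, against 9.59, 10.1 and 9.95 CPM at 5 days; it was chosen after its values were seen.

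**Figure D2:**
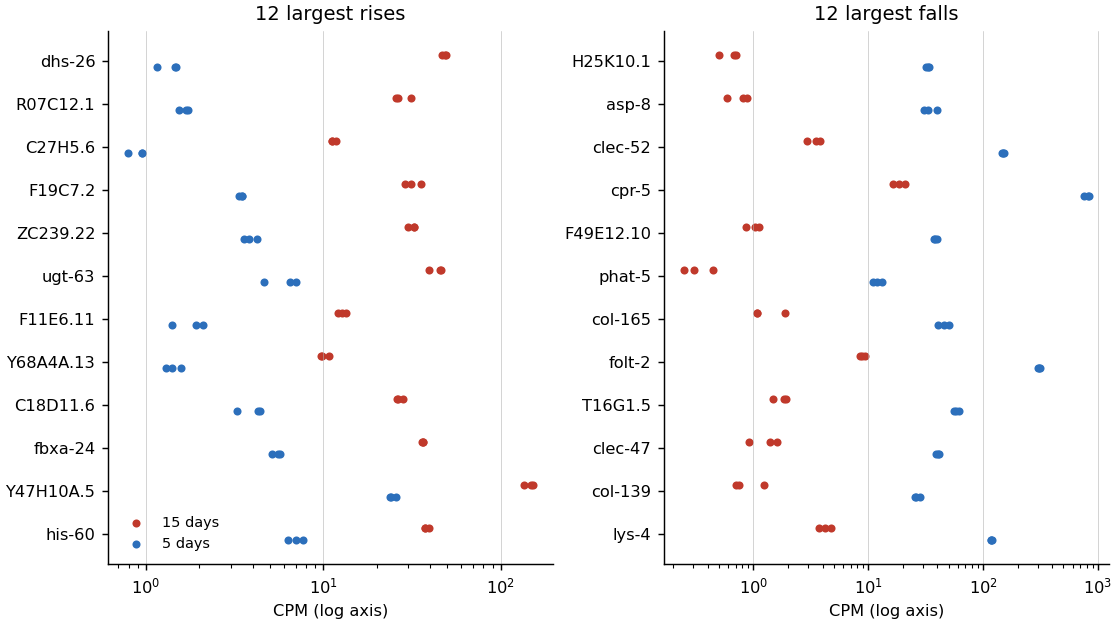
CPM of every DMSO library on a log axis for the 12 largest rises (left panel) and the 12 largest falls (right panel) among genes of at least 10 CPM, with the 3 libraries of 15 days in red just above the 3 of 5 days in blue. The rule that picked these genes required no overlap between the libraries of the ages, so their separation is not a result. Mean levels at 15 and 5 days run from dhs-26 at 48.1 and 1.36 CPM to lys-4 at 4.24 and 118 CPM.

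By a strict rule, few genes were present at an age and near 0 at the other. The rule was at least 1 CPM in all 3 libraries of an age and under 0.1 CPM in all 3 of the other. scl-20, Y39A3B.7 and the pseudogene WBGene00021233 passed it with the higher level at 15 days, and F22B3.7 with the higher level at 5 days. These 4 genes were named after their values were seen. scl-20 had 2.14, 1.83 and 2.07 CPM at 15 days, against 0.0468, 0.0194 and 0.0649 CPM at 5 days. F22B3.7 had 0.0756, 0 and 0.0207 CPM at 15 days, against 2.11, 2.16 and 2.12 CPM at 5 days.

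**Figure D3:**
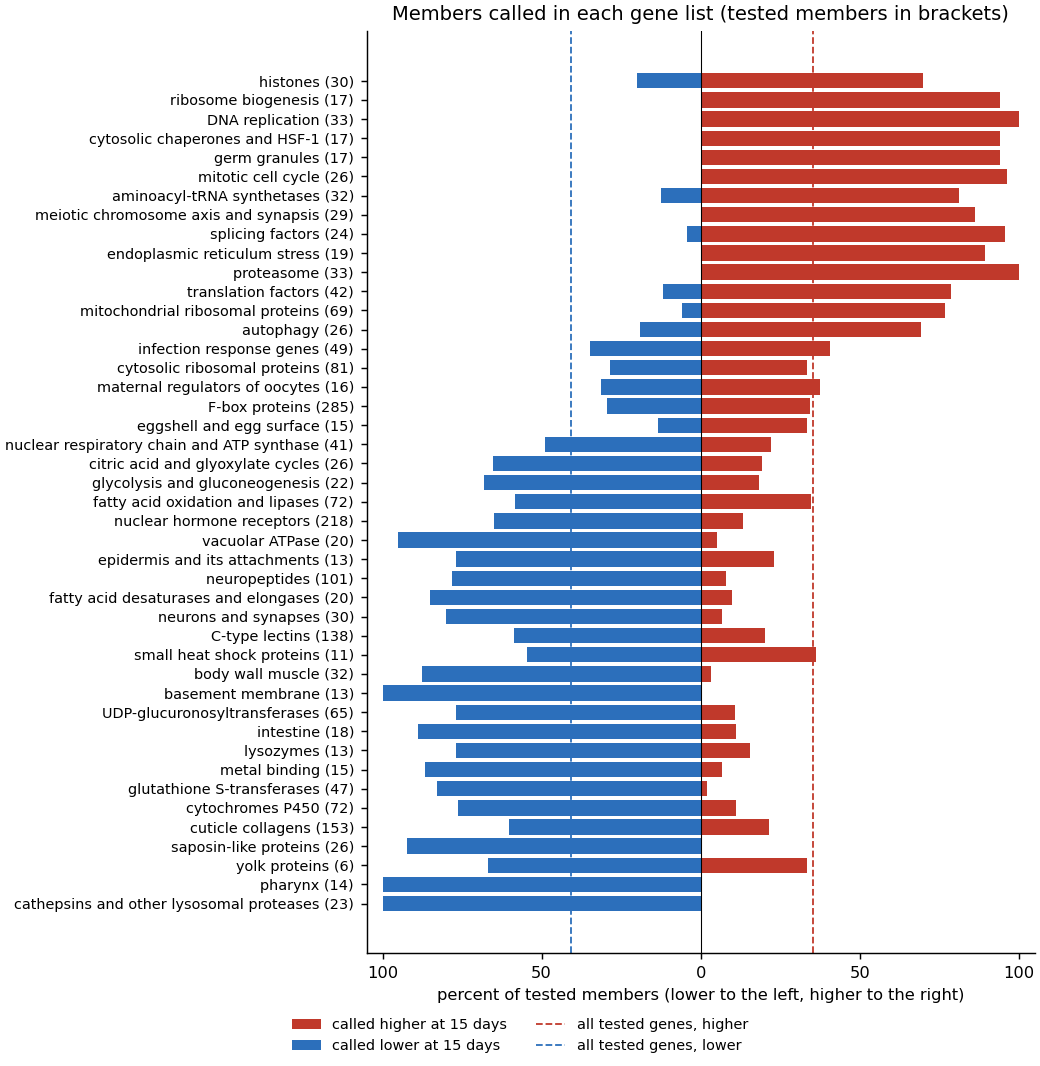
Share of tested members called higher at 15 days (red, to the right) and lower (blue, to the left) in 44 of the gene lists, ordered by their median log2 difference, with dashed lines at the shares over all tested genes, 35.2% higher and 40.9% lower. Among the lists drawn, those of cell division and germ cell genes, protein synthesis, folding and the proteasome fill the red side. Those of digestion, detoxification, muscle, pharynx, neurons and collagens fill the blue side.

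Digestive and lysosomal genes fell together and steeply. All 23 tested genes of cathepsins and other lysosomal proteases were called lower, 22 of them at least 2-fold, with a median log2 difference of −2.48 against −0.06 over all tested genes. Their summed share of counts was 0.325% ± 0.0107 at 15 days and 1.89% ± 0.0312 at 5 days (SD, n = 3 each). The aspartic protease gene asp-5 had 118 ± 4.4 CPM at 15 days, against 2098, 2133 and 2123 CPM at 5 days, 17.9-fold lower. asp-1, an intestinal aspartic protease, had 281, 288 and 309 CPM at 15 days, against 2877, 3118 and 3237 CPM at 5 days. The smallest fall in the list was still −0.43 on the log2 scale. By contrast cpi-1, which encodes a cystatin that inhibits cysteine proteases, rose 2.31-fold, with 1338 ± 38.9 CPM at 15 days and 578 ± 13.9 CPM at 5 days, while its relative cpi-2 had 223 ± 0.704 and 229 ± 4.77 CPM and was not called. Both cystatins were chosen after their values were seen.

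Of 26 tested saposin-like genes, which encode membrane-acting peptides of the gut, 24 were called lower and 0 higher, with a median of −1.46. spp-23 fell 17.9-fold, spp-4 fell 8.36-fold and spp-3 fell 8-fold. Of 13 tested lysozymes, enzymes that cut bacterial walls, 10 were lower and 2 higher. lys-8 had 59.4 ± 3.67 CPM at 15 days and 316 ± 9.85 CPM at 5 days, and lys-7 had 350 ± 35.2 CPM and 634 ± 23.7 CPM. The invertebrate-type lysozyme gene ilys-3 went the other way, with 29.7, 35 and 37.4 CPM at 15 days, against 10.2, 13 and 12 CPM at 5 days. The vacuolar ATPase, the proton pump that acidifies lysosomes, had 19 of 20 genes lower and 1 higher, with a median of −0.50. Its intestinal subunit gene vha-6 fell furthest, 6.11-fold, and vha-18 was the member that rose, 1.28-fold.

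General markers of the intestine showed the same direction with smaller sizes. Of 18 intestinal genes 16 were called lower and 2 higher, with a median of −1.08. The gut esterase gene ges-1 had 10.7, 9.31 and 9.25 CPM at 15 days, against 36.2, 32.5 and 33 CPM at 5 days. The intermediate filament gene ifb-2, the peptide transporter gene pept-1 and the brush-border actin gene act-5 fell 3.01-fold, 2.38-fold and 2.17-fold. elt-2, the main intestinal GATA transcription factor, fell 1.5-fold, with no overlap between the libraries of the ages (edgeR adjusted p = 4.54e-09). The aquaporin gene aqp-8 was the exception in size, with 44.9, 50.3 and 44.5 CPM at 15 days, against 19.6, 22.8 and 17.7 CPM at 5 days, and erm-1 rose 1.09-fold.

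Yolk genes did not move as 1 block. vit-6, vit-2, vit-5 and vit-1 fell, and vit-3 and vit-4 rose. vit-6 had 5640, 5206 and 5817 CPM at 15 days, against 27846, 29630 and 29876 CPM at 5 days, 5.24-fold lower (edgeR adjusted p = 9.53e-19). vit-2 fell 4.7-fold and vit-5 fell 3.64-fold. vit-3 had 284, 236 and 268 CPM at 15 days, against 76.9, 78.2 and 80.8 CPM at 5 days, 3.34-fold higher. vit-4 had 196 ± 14.8 CPM at 15 days and 153 ± 2.1 CPM at 5 days. Per kilobase of exon, vit-6 stayed above vit-3, at 1097 and 53.3 CPM per kilobase at 15 days. vit-3, vit-4 and vit-5 are close copies of each other, so how reads were divided among them is uncertain. The 6 genes together held 1.28% ± 0.0782 of counts at 15 days and 5.62% ± 0.146 at 5 days.

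Detoxification families fell broadly. Of 47 tested glutathione S-transferases, which couple glutathione to toxic compounds, 39 were lower and 1 higher, with a median of −1.21. gst-4, widely used as a reporter of the oxidative stress factor SKN-1, had 10.5, 8.48 and 8.61 CPM at 15 days, against 96.1 ± 11.1 CPM at 5 days, 10.5-fold lower. gst-14 fell 22.9-fold, gst-19 fell 17.1-fold, and gst-43 was the member that rose, 1.19-fold. Of 72 tested cytochromes P450, oxidases of lipids and foreign compounds, 55 were lower and 8 higher, with a median of −1.30. cyp-14A4 fell 26.4-fold, while cyp-13A5 rose 4.47-fold, with 109, 113 and 116 CPM at 15 days, against 26.8, 25.8 and 23.1 CPM at 5 days. Of 65 tested UDP-glucuronosyltransferases 50 were lower and 7 higher, with a median of −1.06, and ugt-62 fell 9.68-fold, to 27.1 ± 1.34 CPM at 15 days, against 262 ± 6.44 CPM at 5 days. Carboxylesterases with the cest prefix had 26 of 31 members lower and 1 higher, with cest-1.1 16.8-fold and cest-2.2 10-fold lower.

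Metal and oxygen responses followed. Of 15 tested metal-binding genes 13 were lower, with a median of −1.14. The metallothionein gene mtl-1 had 61.3, 62.1 and 59.3 CPM at 15 days, against 430, 444 and 445 CPM at 5 days, 7.23-fold lower, and the cadmium-responsive gene cdr-1 fell 12.8-fold. Of 11 genes of the hypoxia and hydrogen sulfide response 10 were lower, including cysl-2 (2.86-fold), rhy-1 (2.73-fold) and hif-1 itself (1.34-fold). egl-9, the oxygen sensor that marks HIF-1 for destruction, rose 1.15-fold. Antioxidant enzymes were divided, with 13 of 33 higher (39.4%) and 13 lower (39.4%), near the shares over all tested genes (35.2% and 40.9%). Their median of −0.05 turned to 0.01 with DESeq2-type size factors. The mitochondrial superoxide dismutase gene sod-2 rose 1.22-fold and the mitochondrial sod-3 fell 1.63-fold, with 2.22, 2.3 and 2.28 CPM at 15 days, against 3.58, 3.73 and 3.76 CPM at 5 days. The peroxisomal catalase gene ctl-2 fell 2.85-fold, and the methionine sulfoxide reductase gene msra-1 fell 4.19-fold. trx-3, a thioredoxin of the intestine, rose 3.17-fold.

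Chaperones of the cytosol and the endoplasmic reticulum, and the proteasome, rose by small steps. Of 17 cytosolic chaperones and their regulators 16 were called higher and 0 lower, with a median of 0.52. cct-6, of the chaperonin that folds actin and tubulin, had 482, 501 and 490 CPM at 15 days, against 297, 314 and 284 CPM at 5 days. The abundant hsp-90 rose 1.24-fold, with 3684 ± 58.3 CPM at 15 days and 2967 ± 80.5 CPM at 5 days. hsp-70, an inducible chaperone with close relatives that can share its reads, had 13.6, 17.6 and 12 CPM at 15 days, against 8.16, 9.33 and 9.08 CPM at 5 days. The heat shock factor gene hsf-1 rose 1.14-fold. Every one of 33 proteasome genes was called higher, with a median of 0.33 and a largest rise of 1.72-fold for rpn-9. Of 19 genes of the endoplasmic reticulum stress response 17 were higher and 0 lower, and its chaperone gene hsp-4 rose 1.28-fold. For mitochondrial stress 6 of 11 genes were higher (54.5%) and 4 lower (36.4%), beside 35.2% and 40.9% over all tested genes. The matrix chaperone genes hsp-60 and hsp-6 rose 1.71-fold and 1.24-fold, and the regulator dve-1 fell 1.99-fold.

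Small heat shock proteins, which hold unfolded proteins, were divided between 4 higher (36.4%) and 6 lower (54.5%) of 11 tested, with a median of −0.90. Over all tested genes 35.2% were higher and 40.9% lower. hsp-16.2 had 11, 11.1 and 11.1 CPM at 15 days, against 6.15, 6.01 and 5.41 CPM at 5 days, 1.89-fold higher (edgeR adjusted p = 2.67e-09). hsp-16.41, its neighbour on chromosome V, rose 2.08-fold, although near-identical hsp-16 copies make the division of reads uncertain, and hsp-12.6 rose 5.9-fold, while hsp-17 fell 3.54-fold and hsp-43 fell 3.43-fold. Autophagy genes had 18 of 26 higher (69.2%) and 5 lower (19.2%), with a median of 0.15. The most abundant of the 5 bins of all tested genes had 67.3% higher and 21% lower, with a median of 0.22. lgg-1, whose protein coats autophagosomes, rose 1.38-fold and bec-1 rose 1.69-fold. hlh-30, the transcription factor of lysosome and autophagy genes, fell 1.34-fold.

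Lipid and carbon metabolism fell at particular steps. acdh-1, a short-chain acyl-CoA dehydrogenase that opens the propionate shunt, had 47.9, 39.1 and 44.6 CPM at 15 days, against 1241, 1170 and 1180 CPM at 5 days, 27.2-fold lower. The later shunt genes were looked up after that value was seen. hphd-1 fell 9.13-fold, alh-8 fell 3.34-fold, hach-1 fell 2.24-fold and ech-6 fell 2.19-fold. nhr-68, a nuclear receptor known to activate the shunt, fell 5.32-fold, and its partner nhr-10 rose 1.39-fold. Over all 72 tested genes of fatty acid oxidation and lipases 42 were lower and 25 higher, with a median of −0.42. The lysosomal lipase gene lipl-1 fell 11.9-fold and the peroxisomal oxidase gene acox-1.5 fell to 15.3 CPM at 15 days, against 226 CPM at 5 days.

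Fatty acid desaturases and elongases had 17 of 20 tested genes lower and 2 higher, with a median of −0.78. The stearoyl-CoA desaturase gene fat-7 had 5.59, 5.98 and 7.18 CPM at 15 days, against 27.9, 27.5 and 26.7 CPM at 5 days, 4.34-fold lower. Its close relative fat-6 fell 1.41-fold, and fat-5, the palmitoyl-CoA desaturase gene, rose 1.2-fold. elo-5, which makes branched-chain fatty acids, fell 3.5-fold. icl-1, the bifunctional glyoxylate cycle gene, fell 3.79-fold, to 198 ± 3.76 CPM at 15 days, against 749 ± 49.9 CPM at 5 days. In the citric acid and glyoxylate cycles as a whole 17 of 26 genes were lower and 5 higher, with a median of −0.13, or 11 lower and 8 higher with DESeq2-type size factors. In glycolysis and gluconeogenesis 15 of 22 were lower and 4 higher, with a median of −0.29, and pck-1, the first committed step of gluconeogenesis, fell 2.47-fold.

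Several pairs of related genes moved in opposite directions. For glyceraldehyde-3-phosphate dehydrogenase, gpd-2 and gpd-3 fell 3.49-fold and 2.9-fold, while gpd-1 and gpd-4 rose 1.29-fold and 1.35-fold. For the ATP synthase b subunit, asb-1 had 386, 396 and 385 CPM at 15 days, against 222, 226 and 206 CPM at 5 days. Its counterpart asb-2 had 103, 102 and 102 CPM at 15 days, against 197, 207 and 192 CPM at 5 days. For a core protein of respiratory complex III, ucr-2.3 rose 2.05-fold and ucr-2.1 fell 1.83-fold. For ribosomal protein L11, rpl-11.1 rose 1.32-fold and rpl-11.2 fell 1.45-fold. These sets were chosen after their values were seen, and in these 4 the falling genes lie on the X chromosome and the rising genes on an autosome. Other related genes with opposite calls were not all placed so. idhg-2 and gpdh-1, both on chromosome I, fell 1.66-fold and 3.66-fold, while idhg-1 and gpdh-2, both on chromosome III, rose 1.65-fold and 1.08-fold. The call of gpdh-2 was lost without the filter on low counts (adjusted p = 0.0996), a setting with doubtful p-values. sucl-1, on the X chromosome, fell 1.49-fold and sucl-2, on chromosome III, rose 1.37-fold. Pairs within gpd-2 with gpd-3 and gpd-1 with gpd-4 are near-identical, so the division of reads within them is uncertain. Over the nuclear respiratory chain and ATP synthase 9 of 41 genes were higher and 20 lower, with a median of −0.05. With DESeq2-type size factors 16 were higher and 14 lower and the median was 0.01, so the direction of this list depends on the scaling. Of 12 protein-coding genes of mitochondrial DNA 5 were lower (41.7%) and 0 higher, beside 40.9% and 35.2% over all tested genes. With sequencing lane as a block 8 were lower. Without replicate 1 of 15 days 9 were lower, and without replicate 3 of 5 days 8 were lower. Without the filter on low counts 11 were lower, but calls under that setting are doubtful, as given for rrn-3.1. CYTB had 585, 542 and 485 CPM at 15 days, against 869, 837 and 840 CPM at 5 days.

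The cuticle and its surroundings lost most of their collagen transcripts. Of 153 tested cuticle collagen genes, out of 175 listed, 92 were called lower and 33 higher, with a median of −1.45. Their summed share was 0.173% ± 0.0125 of counts at 15 days and 1.13% ± 0.107 at 5 days. col-19, a collagen that marks the adult stage, had 22, 21.8 and 22 CPM at 15 days, against 275, 317 and 285 CPM at 5 days, 13.3-fold lower (edgeR adjusted p = 1.58e-18). col-160 fell 26.2-fold and dpy-7 fell 6.05-fold. Every one of 13 basement membrane genes fell, with a median of −1.0. The type IV collagen gene emb-9 had 75.2, 70.1 and 73.2 CPM at 15 days, against 219, 238 and 230 CPM at 5 days, and its partner let-2 fell 3.07-fold. Of 13 genes of the epidermis and its attachments 10 were lower and 3 higher, including the epidermal GATA factor gene elt-1, which rose 1.49-fold.

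The collagens that rose most were uneven between the 15-day libraries. col-49 had 5.59, 1.74 and 0.913 CPM at 15 days, against 0.0468, 0.0389 and 0.0433 CPM at 5 days. col-175 had 3.9, 1.68 and 0.83 CPM, against 0, 0.0583 and 0.0433 CPM, and col-138 had 7.05, 2.74 and 0.851 CPM, against 0.0936, 0.0389 and 0.216 CPM. All 3 were highest in replicate 1 of 15 days, yet even the lowest 15-day library stood above every 5-day library. The blister collagen gene bli-1 was high in a single library, with 0.353, 3.77 and 0.622 CPM at 15 days, against 0.351, 0.35 and 0.324 CPM at 5 days. Its call (edgeR adjusted p = 0.0308) was lost without replicate 2 of 15 days (adjusted p = 0.577) and without any 1 of the 5-day libraries (adjusted p from 0.0648 to 0.0701). Larval moulting genes were looked at beside them. Of 14 such genes 4 were higher (28.6%) and 6 lower (42.9%), beside 35.2% and 40.9% over all tested genes. Their summed level was 432 to 451 CPM at 15 days and 562 to 624 CPM at 5 days, and none was at 0 at either age. Their part in the collagen values was not tested.

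Muscle, pharynx and nerve cells shared the fall. Of 32 body wall muscle genes 28 were lower and 1 higher, with a median of −0.95. The myosin heavy chain gene myo-3 had 47.9, 44.6 and 43.7 CPM at 15 days, against 121 ± 1.06 CPM at 5 days, 2.67-fold lower. unc-54, the major myosin, fell 2.45-fold, to 231 ± 26.2 CPM at 15 days, against 566 ± 28.2 CPM at 5 days. The troponin genes tni-1 and tnt-3 fell 3.8-fold and 2.54-fold, and the beta integrin gene pat-3, which is used in many tissues, rose 1.38-fold. All 14 pharynx genes fell, with a median of −1.55, including the pharyngeal myosins myo-1 (2.83-fold) and myo-2 (2.51-fold).

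Of 30 genes of neurons and synapses 24 were lower and 2 higher, with a median of −0.82. unc-17, the vesicular acetylcholine transporter gene, had 1.61, 1.3 and 1.43 CPM at 15 days, against 3.88, 4.2 and 4.26 CPM at 5 days. unc-47 and unc-25, which load and make the transmitter GABA, fell 2.68-fold and 2.53-fold, and the vesicle gene rab-3 fell 2.13-fold. The synaptobrevin gene snb-1, whose product also serves secretion, rose 1.19-fold. Neuropeptide genes had 79 of 101 tested members lower and 8 higher, with a median of −0.62. In the FMRFamide-related family 27 of 30 were lower and 1 higher, with flp-34 and flp-13 lowest at 2.93-fold and 2.37-fold. nlp-48, nlp-59 and nlp-51 rose, by 1.58, 1.42 and 1.35 on the log2 scale. The 3 coelomocyte genes, of scavenger cells in the body cavity, all fell, lgc-26 by 1.96-fold. Of 9 genes of the gonad sheath and spermatheca 6 were lower and 1 higher, with inx-8 lower by 1.74-fold and the filamin gene fln-1 higher by 1.28-fold.

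Genes of DNA replication, the cell cycle, meiosis and germ granules mostly rose. The tissue of these rises was not tested, as RNA came from whole worms. Every one of 33 DNA replication genes was called higher, with a median of 0.56. rnr-2, the small subunit of ribonucleotide reductase, had 1156, 1179 and 1215 CPM at 15 days, against 471, 478 and 484 CPM at 5 days, 2.48-fold higher (edgeR adjusted p = 1.54e-18). Of 26 mitotic cell cycle genes 25 were higher and 0 lower, with a median of 0.46. The cyclin D gene cyd-1 stood out, with 98, 100 and 108 CPM at 15 days, against 23.4, 23.3 and 24.4 CPM at 5 days, 4.32-fold higher, and its kinase gene cdk-4 rose 1.91-fold. Of 29 meiotic genes 25 were higher and 0 lower. The meiotic kinase gene chk-2 rose 2.29-fold, and syp-1, a part of the synaptonemal complex that joins paired chromosomes, had 151 ± 5.31 CPM at 15 days and 74.3 ± 1.76 CPM at 5 days. Germ granule genes had 16 of 17 higher and 0 lower, with glh-2 1.63-fold and pgl-1 1.16-fold higher. Of 30 tested histone genes, many of them near-identical copies among which reads may be divided uncertainly, 21 were higher and 6 lower. his-64 had 4.33, 5.15 and 3.94 CPM at 15 days, against 0.632, 0.506 and 0.606 CPM at 5 days.

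Transcripts stored in oocytes differed by less than 2-fold for every listed gene. Of 16 maternal regulators 6 were higher (37.5%) and 5 lower (31.2%), beside 35.2% and 40.9% over all tested genes. Their median was 0.01, with a summed share of 0.869% ± 0.00181 of counts at 15 days and 0.818% ± 0.00871 at 5 days. With DESeq2-type size factors 8 were higher and 2 lower. oma-1, needed for oocyte maturation, had 376, 387 and 384 CPM at 15 days, against 339, 330 and 332 CPM at 5 days, 1.15-fold higher. pie-1 rose 1.48-fold and spn-4 rose 1.44-fold, while lin-41 fell 1.29-fold and puf-5 had 715 CPM at 15 days and 809 CPM at 5 days. Eggshell and egg surface genes had 5 of 15 higher (33.3%) and 2 lower (13.3%), beside the same 35.2% and 40.9%, with a median of 0.00. The count higher was 8 with DESeq2 and 3 without replicate 1 or replicate 2 of 15 days or replicate 2 of 5 days, and perm-4 rose 1.31-fold. Early zygotic genes of embryos were scarce, and of 7 tested 3 were higher (42.9%) and 2 lower (28.6%). tbx-38 had 5.32, 5.39 and 5.19 CPM at 15 days, against 0.936, 1.03 and 1.3 CPM at 5 days, while ceh-51 fell 2.14-fold. The 13 embryo genes summed to 22.7 to 23.6 CPM at 15 days and 19.1 to 19.9 CPM at 5 days, with none at 0 at either age.

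Sperm genes were faint at both ages and leaned higher at 15 days. Of 51 listed, 31 were tested, and 23 were called higher and 4 lower, with only 6 above a mean of 1 CPM. These counts rest on the filter: with the 6 DMSO libraries alone 10 were called higher and the median log2 difference was 0.42, against 1.72 in the 12-library fit, and with at least 1 CPM in 3 libraries 7 were higher and 0 lower. Summed, they reached 69.7, 58.4 and 62.7 CPM at 15 days, against 42.5, 42.6 and 41.9 CPM at 5 days. At 15 days 1 of the 51 had no count, and at 5 days 15 had none. The casein kinase gene spe-6 had 7.99, 8.13 and 7.12 CPM at 15 days, against 2.95, 2.7 and 2.88 CPM at 5 days, 2.72-fold higher. The major sperm protein genes lay far lower and were uneven. msp-77 had 0.328, 0.0883 and 0.145 CPM at 15 days and no count at 5 days, which is at least 8.75-fold higher when 3 counts over the 5-day group are taken as the floor. msp-45 had 0.328, 0.0294 and 0.207 CPM and no count at 5 days, at least 8.81-fold higher. Copies of the msp family are near-identical, so the level of any one of them is uncertain. The sperm phosphatase gene gsp-3 had 0.831, 0.294 and 0.498 CPM at 15 days, against 0, 0.0389 and 0.0433 CPM at 5 days, while its near-identical relative gsp-4 fell 1.84-fold, a call that was lost without replicate 3 of 15 days (adjusted p = 0.053). The part of a few sperm or males in these values was not tested.

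Genes of ribosome assembly and of translation factors were mostly higher, while the balance of the cytosolic ribosomal proteins depended on the scaling. Ribosome biogenesis genes had 16 of 17 higher and 0 lower, with a median of 0.56. The nucleolar genes dao-5 and fib-1 rose 1.85-fold and 1.52-fold, with fib-1 at 574 ± 17.9 CPM at 15 days and 377 ± 11.8 CPM at 5 days. Aminoacyl-tRNA synthetases, which charge transfer RNAs, had 26 of 32 higher and 4 lower, and hars-1 rose 1.76-fold. Of 42 translation factors 33 were higher (78.6%) and 5 lower (11.9%), with a median of 0.31. The most abundant of the 5 bins of all tested genes had 67.3% higher and 21% lower, with a median of 0.22. Among the translation factors, eif-3.L had 204 ± 4.36 CPM at 15 days and 111 ± 3.89 CPM at 5 days. Cytosolic ribosomal proteins had 27 of 81 tested genes higher (33.3%) and 23 lower (28.4%), beside 35.2% and 40.9% over all tested genes. Their median was 0.02, with no change of 2-fold. With DESeq2-type size factors 39 were higher and 14 lower, with a median of 0.09. rpl-2 had 797, 864 and 837 CPM at 15 days, against 837, 953 and 919 CPM at 5 days. The groups overlapped, although it was called lower (edgeR adjusted p = 0.0277). The call was lost with DESeq2-type size factors (adjusted p = 0.295), with library totals (adjusted p = 0.0662), and without replicate 1 of 15 days, replicate 2 of 5 days or replicate 3 of 5 days (adjusted p from 0.0807 to 0.14). Mitochondrial ribosomal proteins had 53 of 69 higher (76.8%) and 4 lower (5.8%), with a median of 0.25. mrps-18C rose 1.67-fold and mrps-23 rose 1.65-fold. Splicing factors had 23 of 24 higher and 1 lower, with prp-8 at 727 ± 15.1 CPM at 15 days and 451 ± 8.41 CPM at 5 days. Nuclear pore genes of the npp family had 24 of 26 higher and 0 lower, led by npp-13 at 1.87-fold and npp-8 at 1.68-fold. Of 20 Argonautes, which carry small RNAs, 14 were higher (70%) and 4 lower (20%). nrde-3 rose 1.88-fold, and the microRNA Argonaute gene alg-1 fell 1.61-fold.

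Immune genes were mixed. Of 138 tested C-type lectins, out of 240 listed, 81 were lower and 28 higher, with a median of −0.86. clec-266 was the abundant exception, with 601, 591 and 628 CPM at 15 days, against 264, 286 and 295 CPM at 5 days. clec-151 had 2.42, 2.74 and 2.59 CPM at 15 days, against 0.164, 0.292 and 0.13 CPM at 5 days. Of 49 tested infection response genes 20 were higher (40.8%) and 17 lower (34.7%), with a median of 0.10, beside 35.2% and 40.9% over all tested genes. eol-1, a gene of the intracellular pathogen response, rose 3.36-fold, while irg-1 fell 4.51-fold. Epidermal antimicrobial peptides had 6 of 23 higher (26.1%) and 12 lower (52.2%), with log2 differences of 2.02 for cnc-7 and −2.94 for fip-2. F-box proteins were divided almost evenly, with 98 of 285 tested genes higher (34.4%) and 84 lower (29.5%), beside the same 35.2% and 40.9%. Of 49 tested transthyretin-related genes 33 were lower and 11 higher, and 2 of the rises were of abundant transcripts. ttr-51 had 1809, 1796 and 1898 CPM at 15 days, against 476, 519 and 499 CPM at 5 days, and ttr-45 rose 3.22-fold. Both lie within about the same stretch of chromosome IV, ttr-51 from 13250655 to 13252311 and ttr-45 from 13254225 to 13255538.

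Signalling and transcription factor genes changed by small amounts for the best-known regulators of lifespan. daf-16, the FOXO factor of insulin signalling, had 232, 234 and 233 CPM at 15 days, against 200, 196 and 196 CPM at 5 days, 1.18-fold higher. The insulin receptor gene daf-2 had 162 ± 3.77 CPM at 15 days and 165 ± 3.07 CPM at 5 days and was not called (edgeR adjusted p = 0.546). skn-1 had 406, 411 and 424 CPM at 15 days, against 399, 418 and 407 CPM at 5 days, and was not called either (edgeR adjusted p = 0.509), but with DESeq2-type size factors it was called higher by 0.08 on the log2 scale (adjusted p = 0.011). pqm-1 fell 2.43-fold and nhr-80 fell 2.6-fold. pdk-1, a kinase of the insulin pathway, rose 2.23-fold, with 40.1, 40.6 and 43.5 CPM at 15 days, against 18.4, 18.4 and 18.9 CPM at 5 days. Of 13 tested genes raised in daf-2 mutants through DAF-16, 9 were lower and 4 higher, and of 7 dod genes lowered in such mutants 5 were higher and 2 lower. dod-24 and dod-23 of the second list rose 3.32-fold and 2.28-fold. Of 32 tested insulin-like peptide genes 14 were lower (43.8%) and 8 higher (25%), beside 40.9% and 35.2% over all tested genes. ins-8 had 2.22, 2.06 and 2.39 CPM at 15 days, against 0.14, 0.194 and 0.238 CPM at 5 days, while ins-19 fell 2.76-fold.

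The GATA factor genes elt-3, egl-18 and elt-6, which have been linked in a circuit of worm ageing, differed by under 2-fold. elt-3 had 14.1, 13.7 and 14.5 CPM at 15 days, against 20.6, 23.7 and 20.5 CPM at 5 days, 1.53-fold lower (edgeR adjusted p = 5.59e-08). egl-18, a repressor of elt-3, rose 1.15-fold. elt-6, which lies beside egl-18 on chromosome IV, had 10.3, 10.9 and 10 CPM at 15 days, against 10.9, 11.6 and 11.4 CPM at 5 days, and missed the threshold (edgeR adjusted p = 0.0553, or 0.0464 with sequencing lane as a block). It also passed without replicate 2 of 15 days or replicate 1 of 5 days (adjusted p = 0.0355 and 0.0399). It passed without the filter on low counts too (adjusted p = 0.0265), a setting whose p-values are doubtful, as given for rrn-3.1. Nuclear hormone receptors as a family leaned lower, with 142 of 218 tested genes lower and 29 higher, and nhr-114 fell 6.87-fold. Hedgehog-related genes had 47 of 74 lower and 9 higher. Of 266 tested chemoreceptor genes, out of 1309 listed, 69 were lower and 53 higher at mostly faint levels; srh-237 had 0.453, 0.471 and 0.456 CPM at 15 days, against 10.9, 9.1 and 9.47 CPM at 5 days. Of the lists not described so far, 12 of 18 genes of insulin and TOR signalling were higher (66.7%) and 3 lower (16.7%). For longevity and stress transcription factors 7 of 27 were higher (25.9%) and 14 lower (51.9%). Of 10 genes of trehalose and glycerol 3 were higher (30%) and 6 lower (60%). Over all tested genes the shares were 35.2% and 40.9%. Mitophagy and mitochondrial dynamics had 8 of 12 higher (66.7%) and 2 lower (16.7%), and astacin metalloproteases had 5 of 31 tested genes higher and 20 lower. MATH and BATH proteins had 14 of 66 tested genes higher (21.2%) and 25 lower (37.9%), beside 35.2% and 40.9% over all tested genes. For cell death 12 of 17 genes were higher (70.6%) and 2 lower (11.8%). The most abundant of the 5 bins of all tested genes had 67.3% higher and 21% lower. The engulfment gene psr-1 rose 2.17-fold and the lysosomal nuclease gene nuc-1 fell 2.46-fold.

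The chromosomes differed in the balance of calls. On the X chromosome 1415 of 2495 tested genes were lower (56.7%) and 526 higher (21.1%), with a median log2 difference of −0.41. Chromosome I had 1213 of 2631 genes higher (46.1%) and 827 lower (31.4%), with a median of 0.11, and chromosome III had a median of 0.09. Chromosome V was the autosome with the lowest median, −0.22. The X chromosome held 6.21% ± 0.153 of counts at 15 days and 9.8% ± 0.0768 at 5 days (SD, n = 3 each), and the 3 libraries of each age did not overlap. Transcript length showed less. Of 5 equal bins of summed exon length, the longest had 45.1% of genes higher and 39% lower, and the shortest had 29.3% higher and 41.1% lower. Among 728 tested pseudogenes 231 were higher (31.7%) and 179 lower (24.6%), beside 35.2% and 40.9% over all tested genes, so both shares were smaller.

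**Figure D4:**
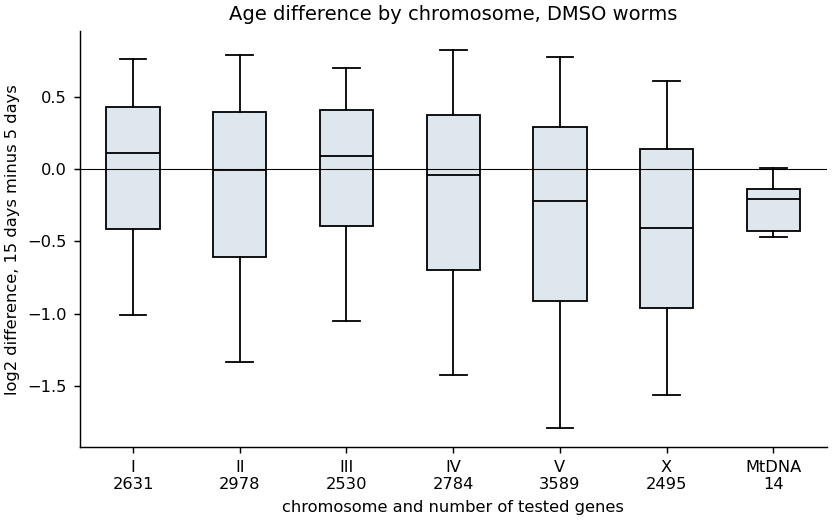
Log2 difference, 15 days minus 5 days, of tested genes on each chromosome, with the number of genes under each name; boxes span the 25th to the 75th percentile with the median as a line, and whiskers span the 10th to the 90th percentile. The X chromosome lies lowest of the 6 nuclear chromosomes, with a median of −0.41, and chromosome I lies highest, with a median of 0.11.

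Ageing after early rotenone, measured in 6 other libraries that share none with the DMSO comparison, gave calls in the same direction for most genes. Of the 13079 genes called in DMSO worms 89.9% were also called in rotenone worms, and of the 13647 called in rotenone worms 86.2% were called in DMSO worms. The direction was the same for 11533 of these 11763 genes and opposite for 230. The size of the age difference itself differed between DMSO and rotenone worms for 4419 genes (25.7% of tested genes; edgeR interaction test at an adjusted p of 0.05), by at least 2-fold for 234 of them. The ranking by interaction p-value took only genes called for age in DMSO worms, with a mean of at least 10 CPM in any group. Its first 5 genes were fat-5, fat-6, hacd-1, T12D8.5 and endu-2. fat-5 rose by 0.26 on the log2 scale in DMSO worms, against 2.07 in rotenone worms (difference −1.81 ± 0.066, edgeR adjusted p = 2.39e-12). fat-6 fell by 0.50 in DMSO worms, against a rise of 0.72 in rotenone worms. hacd-1, a hydroxyacyl-CoA dehydrogenase gene, had 42.5 ± 1.87 CPM at 15 days and 27.8 ± 1.21 CPM at 5 days in DMSO worms, a rise of 0.61, against a difference of −1.29 in rotenone worms. T12D8.5 fell by 2.25 in DMSO worms and had a difference of −0.29 in rotenone worms, and endu-2 fell by 3.69, against −2.35. Of the genes named above, cyd-1 rose by 2.11 in DMSO worms and 2.03 in rotenone worms, and that difference was not called (edgeR adjusted p = 0.33).

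**Figure D5:**
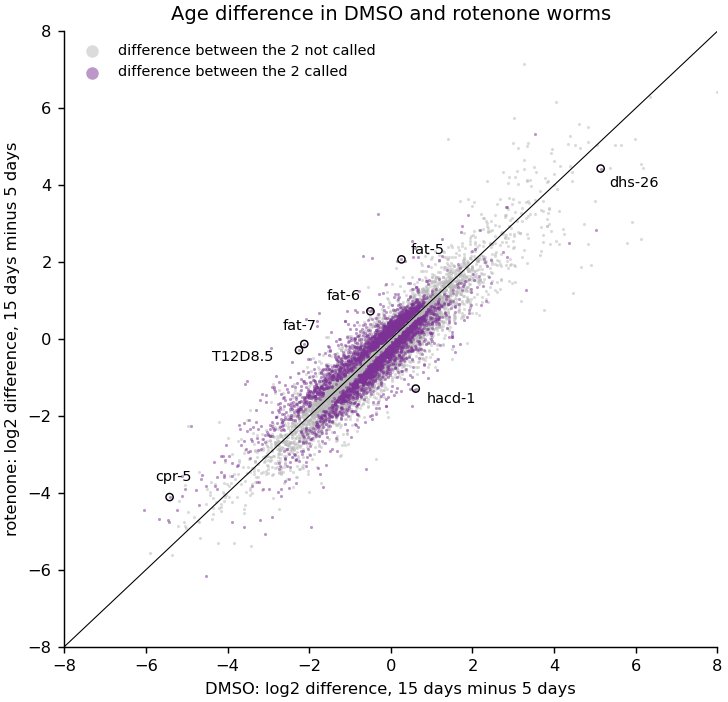
Log2 age difference, 15 days minus 5 days, of every tested gene in DMSO worms (horizontal axis) and rotenone worms (vertical axis), with the line of equal differences; purple points are the 4419 genes whose age difference itself differed between the treatments and grey points are the rest. Most points follow the line, while fat-5 and fat-6 lie above it and hacd-1 lies below it.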

How the data were processed

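RNA of whole worms was sequenced in 12 libraries of 4 groups, 3 in each. Per the submitters' processing notes the authors used bcl2fastq 1.8.3, STAR 2.4.1d, featureCounts 1.4.6-p4 and the build WBcel235, and deposited raw read counts per gene. The deposited RPKM table was not used. Per the labels the replicate number is the sequencing lane, shared by all groups; deviations of same-lane libraries from their group means correlated at −0.0419, −0.0307 and 0.0351 across genes, which are not independent.

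Groups came from the labels. Genes were kept by edgeR's filterByExpr with a minimum count of 10 and scaled by the trimmed mean of M-values. They were fitted with edgeR 4.0.16 (R 4.3.3, quasi-likelihood, 4 groups, no block, Benjamini-Hochberg threshold of 0.05). A test on simulated counts preceded the fit. Few of its genes were changed, unlike in these data, so it does not bear on the scaling here. Alternatives were DESeq2 1.42.0, other scalings and filters, lane as a block, the 6 DMSO libraries alone, and each DMSO library left out. CPM values are TMM-scaled. Symbols and coordinates came from Ensembl release 115.

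The members and the 68 gene lists were chosen with earlier results of these data known. Named genes were the 12 largest rises and falls of at least 10 CPM. With them came up to 3 rises and 3 falls per list of at least 1 CPM, and 25 well-known genes. The leading gene families and the 5 most abundant genes per age were also named. So were the 5 clearest differences from rotenone ageing, among genes called in DMSO worms and of at least 10 CPM in any group. The other named genes (ifb-2, pept-1, act-5, elt-2, vit-1, hif-1, sod-2, hsp-90, nhr-10, bli-1, myo-1, myo-2, rab-3, pgl-1, gsp-3, gsp-4, daf-2, and those so marked beside their values) were chosen after their values were seen. Strand handling in counting is not given in the sources used here, so overlapping genes are uncertain.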

Additional observations from a re-analysis of the deposited data

Results flagged for a closer look

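The genes below are those of the named genes, a selected part of 234 genes in all, for which the age difference itself differed by at least 2-fold between DMSO and rotenone worms (edgeR interaction test, adjusted p under 0.05); each value is the log2 age difference in DMSO worms minus that in rotenone worms. Over all 4419 genes with a called difference of any size, 1776 values were positive and 2643 negative. Values were negative for the desaturase genes, at −1.99 for fat-7, −1.81 for fat-5 and −1.22 for fat-6. They were also negative for the yolk genes, at −1.69 for vit-4 and −1.19 for vit-3. With age fat-5, vit-4 and vit-3 rose under both treatments, by less in DMSO worms. These values do not compare levels between the treatments. The falls of folt-2 (−1.54), spp-4 (−1.41), endu-2 (−1.34), cpr-5 (−1.31) and asp-5 (−1.12) were larger in DMSO worms. lys-7 fell by 0.86 in DMSO worms and had a difference of 0.15 in rotenone worms, which is −1.01. The collagen genes gave −2.64 for col-139 and −1.04 for col-165. T12D8.5 gave −1.96, vmo-1 gave −1.59, T16G1.5 gave −1.15 and H25K10.1 gave −1.0. For ins-8 (−1.81) and dod-24 (−1.06) the rise was smaller in DMSO worms. gsp-4 had −0.88 in DMSO worms and 0.76 in rotenone worms, a gap of −1.64. Of the genes listed here, hacd-1 (1.89) and gst-14 (1.65) gave a positive value; gst-14 fell by 4.52 in DMSO worms, against −6.17 in rotenone worms.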

How the results depend on the processing

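The counts of genes higher, lower, at least 2-fold higher, at least 2-fold lower and differing from rotenone ageing were within 1.5 times of the values reported under every alternative run, with 1 exception. With a filter of at least 1 CPM in 3 libraries, 493 genes were at least 2-fold higher, against 1094. That alternative tests 13792 genes instead of 17166. The alternatives included a fit without the filter on low counts, whose p-value for rrn-3.1 did not follow the spread between libraries. Leaving out each DMSO library in turn gave 5795 to 5897 genes higher and 6759 to 6911 lower. DESeq2 gave 6228 higher and 6024 lower, and its size factors in edgeR gave 6587 and 6489, which moves the median of all genes by under 0.1 on the log2 scale. With the replicate block by sequencing lane 6055 genes were higher and 7073 lower; of the named genes and list counts it changed only elt-6 and the mitochondrial DNA list. Over the 68 gene lists, with 1 count in each direction, 109 counts stayed within 1.5 times under every alternative. Of those that did not, and beside the counts given with their lists, DESeq2-type size factors left 2 autophagy genes, 1 mitochondrial ribosomal gene, 1 aminoacyl-tRNA synthetase, 2 mitochondrial stress genes and 0 splicing factors lower, and 3 muscle genes higher. With at least 1 CPM in 3 libraries 14 C-type lectins, 18 collagens, 4 UDP-glucuronosyltransferases and 8 chemoreceptors were higher and 28 chemoreceptors lower.

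With 3 libraries a side, the smallest p an exact permutation test can give is 0.1, so single genes rest on the spread shared across genes. Genes under 1 CPM, such as the msp and chemoreceptor genes, rest on few counts. Age, day of harvest and culture cannot be told apart, and neither can fewer cells of a type and less RNA per cell.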
